A study of Homo sapiens with 4 samples.

Results

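The AP-1 subunit genes described here were JUN, JUNB and JUND of the Jun family, FOS, FOSB, FOSL1 and FOSL2 of the Fos family, and BATF, BATF2 and BATF3 of the BATF family. Their FOXK2 peaks were the rows of each deposited peak list whose gene name was 1 of these 10 symbols, so the gene was the one whose annotated start lay nearest to the peak. By this rule 7 of 12471 peaks in replicate 1 and 17 of 27281 peaks in replicate 2 belonged to AP-1 subunit genes, and 9 of the 10 genes had a peak in at least 1 list. Altogether 14631 genes were named in the lists. FOXK2 ChIP-seq was performed on OVCAR5 cells, an established line labelled as high grade serous ovarian cancer and taken from ascites, in 2 biological replicates of 1 condition. The cells were unperturbed and grown in RPMI medium with fetal bovine serum. Chromatin was crosslinked with paraformaldehyde, sonicated and precipitated with an antibody to FOXK2. The input libraries were not analysed here, and because peak lists hold no expression values, the labelled cell type could not be checked against marker genes.

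AP-1 is a dimeric transcription factor of the basic leucine zipper (bZIP) class. Jun proteins pair with each other or with Fos proteins, whereas Fos proteins need a Jun partner to bind DNA, and BATF proteins pair with Jun proteins but lack a classical activation domain. AP-1 binds the motif TGACTCA or its reverse complement TGAGTCA, and pairs that include ATF or CREB proteins favour the longer cyclic AMP response element (CRE), TGACGTCA. FOS, FOSB, JUN and JUNB are immediate early genes that growth factors and stress induce within minutes through MAP kinases, and serum response factor acts on FOS through a CArG box. FOXK2 is a forkhead factor, and the spelling of the forkhead core searched here on both strands was the heptamer TGTTTAC.

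This heptamer lay close to the centre of the highest-scoring peak of JUNB and of FOS in both replicates. Motifs were read from the hg38 reference, so overlapping peaks share their letters. A copy under both peaks is therefore no second observation of the motif. The replicate 1 peaks are printed below from hg38, plus strand, with the heptamer in capitals, because they were the highest-scoring member peaks: JUNB at chr19:12791223-12791433, in its promoter, and FOS at chr14:75277122-75277332, upstream of its promoter.
JUNB promoter peak: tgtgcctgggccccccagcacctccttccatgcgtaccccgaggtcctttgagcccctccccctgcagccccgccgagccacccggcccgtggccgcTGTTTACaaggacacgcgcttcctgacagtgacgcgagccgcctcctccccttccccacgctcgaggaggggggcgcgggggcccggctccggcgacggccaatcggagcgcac
FOS upstream peak: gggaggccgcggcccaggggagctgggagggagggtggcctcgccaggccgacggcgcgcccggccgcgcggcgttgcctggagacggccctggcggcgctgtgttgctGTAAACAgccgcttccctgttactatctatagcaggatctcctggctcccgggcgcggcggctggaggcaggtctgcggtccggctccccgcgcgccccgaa

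Read along the strand on which each heptamer reads TGTTTAC, with 12 bases to each side, the copies stood in these contexts, JUNB at chr19:12791308-12791338 on the plus strand and FOS at chr14:75277219-75277249 on the minus strand. They are shown to compare what lies next to the heptamer.
JUNB heptamer: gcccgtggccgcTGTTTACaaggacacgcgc
FOS heptamer: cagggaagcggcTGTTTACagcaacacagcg
The copies shared an unbroken run of 10 bases, gcTGTTTACa. Over all peaks, that run made up 144 of 4042 heptamer copies (3.56%) within 100 bp of a centre in replicate 1 and 265 of 8119 (3.26%) in replicate 2, so most copies had other neighbours.

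Another pair of FOS peaks held a degenerate forkhead core, which is any of 8 heptamers, on either strand, made of a purine, a pyrimidine, 3 adenines, a pyrimidine and a last adenine. The reverse complement of TGTTTAC is 1 of the 8, so each heptamer copy is also a core. The replicate 1 peaks are shown on the plus strand with this core in capitals, at chr14:75259201-75259411 and chr14:75267360-75267570. They were chosen because the overlapping peaks of replicate 2 covered the same copies of the reference.
FOS far upstream peak: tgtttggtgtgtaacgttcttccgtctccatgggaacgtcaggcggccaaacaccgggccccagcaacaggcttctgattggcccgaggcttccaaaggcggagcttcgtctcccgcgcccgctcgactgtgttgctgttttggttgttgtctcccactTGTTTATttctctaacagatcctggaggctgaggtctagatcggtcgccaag
FOS middle peak: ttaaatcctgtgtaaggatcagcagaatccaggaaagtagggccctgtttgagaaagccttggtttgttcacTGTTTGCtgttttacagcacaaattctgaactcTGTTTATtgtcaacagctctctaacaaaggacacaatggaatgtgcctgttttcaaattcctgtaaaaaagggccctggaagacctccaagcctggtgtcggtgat

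FOSB and BATF3 had peaks that held the AP-1 site, in capitals here on the plus strand. The FOSB peak of replicate 1 lay at chr19:45455948-45456158, the FOSB context from the overlapping peak of replicate 2 at chr19:45455882-45455912, and the BATF3 context from replicate 2 at chr1:212667547-212667577. The FOSB sequences are given because each replicate's peak held a different whole copy. The replicate 1 copy started at 45456110, and the replicate 2 peak ended within it, at 45456111.
FOSB upstream peak: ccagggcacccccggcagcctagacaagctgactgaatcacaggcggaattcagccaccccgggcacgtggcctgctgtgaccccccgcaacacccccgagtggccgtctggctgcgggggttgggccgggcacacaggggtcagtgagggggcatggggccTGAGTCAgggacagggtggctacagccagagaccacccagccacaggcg
FOSB site in replicate 2: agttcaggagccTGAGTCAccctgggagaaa
BATF3 site in replicate 2: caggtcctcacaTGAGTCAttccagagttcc

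JUND had no row in either list, but a peak lay in its promoter that the files give to a microRNA gene. It is shown at chr19:18281775-18281985, plus strand, with the CRE in capitals.
JUND promoter peak: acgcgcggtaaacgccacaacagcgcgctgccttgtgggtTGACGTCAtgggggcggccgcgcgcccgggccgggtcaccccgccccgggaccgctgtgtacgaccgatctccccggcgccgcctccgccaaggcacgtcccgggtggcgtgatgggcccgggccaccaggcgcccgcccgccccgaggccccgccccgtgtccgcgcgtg

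Of the 10 genes, 4 had a peak in both replicates (JUNB, FOS, FOSB and FOSL1), 5 had a peak in replicate 2 and not in replicate 1 (JUN, FOSL2, BATF, BATF2 and BATF3) and JUND had none. Of the 20052 protein-coding genes of the RefSeq table, 31.3% had an assigned peak in replicate 1, 51.7% in replicate 2 and 28.6% in both. A peak of the promoter class in both replicates was listed for 3 members (JUNB, FOS and FOSL1), beside 9.30% of coding genes. Within the families, 1 of 3 Jun genes, 3 of 4 Fos genes and 0 of 3 BATF genes had a peak in both lists. The members were chosen with earlier results of these data known, so no test was made over them and the shares are a description.

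All 7 member peaks of replicate 1 were overlapped by a peak of replicate 2 by at least 1 bp (Wilson 95% interval 64.6 to 100%, counting error only), beside 74.9% of the whole list. In the other direction 7 of 17 (41.2%, 21.6 to 64.0%) were overlapped, beside 34.2% of the list. With lists of equal length the member shares were 85.7% and 46.2%. No list share was computed at that length or for replicate 1 peaks of matched score, and member peaks scored higher by median than their lists. Of the 7 replicate 1 peaks, 4 were those of FOS, and the interval takes no account of this. Promoter-class peaks made up 3 of 7 member peaks in replicate 1 (42.9%, 15.8 to 75.0%) and 7 of 17 in replicate 2 (41.2%, 21.6 to 64.0%), and 21.7% and 18.0% of the lists.

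Distances of peaks assigned to a member are those of the files, from the start of the annotated transcript, and distances of peaks given to another gene are from the member's GENCODE start, which can lie elsewhere. Peaks were compared by score, the tags at a peak after scaling by the peak caller, and by the percent of the same list that scored lower. The scores rose in steps of 0.189 in replicate 1 and 0.149 in replicate 2, so each score below 10 corresponded to a whole number of tags within 0.0263 and 0.0331 tags. Higher scores are deposited with a single decimal, and their tags are the nearest whole number. AP-1 subunit gene peaks had median scores of 13.0 and 10.7 in the first and second replicate, where the full lists had 5.85 and 7.29. A median of 92.5% of the list scored below the member peaks in replicate 1 and 74.3% in replicate 2. Member peaks were also richer in G and C (median 69.7% and 60.3%, lists 47.4% and 45.9%) and nearer to a start (median 1551 and 1541 bp, lists 16140 and 20161 bp), and the part of base composition and position in their scores was not tested. The focus ratio, the fraction of a peak's tags that lie on the expected side of its centre, had a median of 0.801 and 0.750 for the members and 0.758 and 0.755 for the lists.

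**Figure D1:**
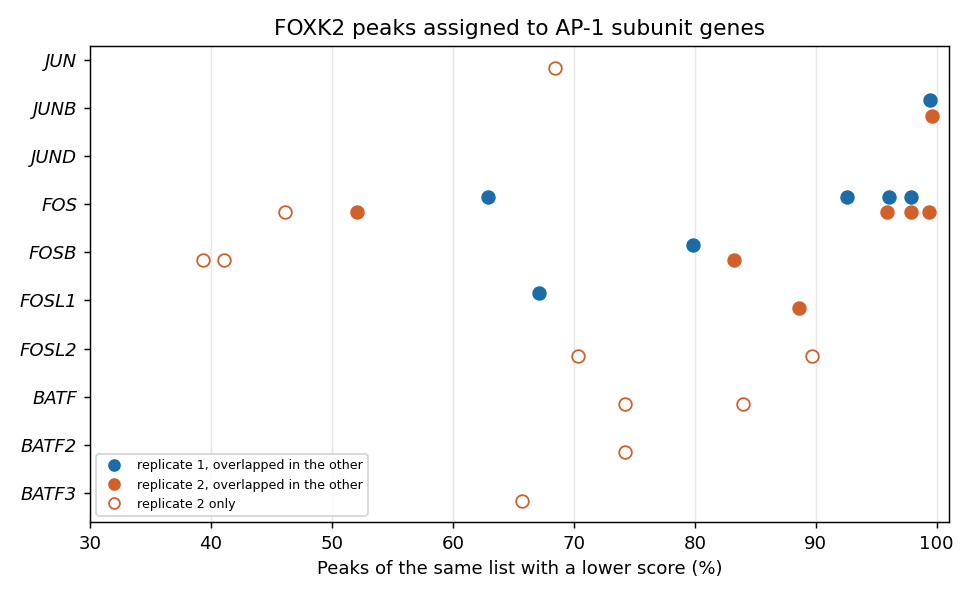
Peaks assigned to each AP-1 subunit gene (rows) by the percent of the same replicate's list that scored lower (horizontal axis); blue points are replicate 1, orange points replicate 2, filled where a peak of the other replicate overlapped and open where none did. JUNB and 3 FOS peaks sat above 92% in both replicates, the peaks of JUN, FOSL2 and the BATF genes were open orange points, and JUND had none.

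JUNB, an immediate early Jun protein, had 1 peak per replicate, and both were among the strongest of their lists. In replicate 1 the peak centre lay 168 bp upstream of the JUNB start, with a score of 33.0, which ranked 71 and corresponded to 175 tags (exact Poisson 95% interval 150 to 203). In replicate 2 the peak at chr19:12791194-12791450 scored 57.6, ranked 100 and corresponded to 387 tags (349 to 428). The replicates placed the centre within 6 bp of each other, and the middle of the heptamer was 5 bp before the centre in replicate 1 and 1 bp after it in replicate 2. In the order of the 7615 genes with a peak in both lists, by the mean percent scoring lower of their best peaks, JUNB stood at 74. CBX7, which encodes a Polycomb protein, and WIPI2, which encodes an autophagy protein, stood just above it, and LINC01335 and ASB9P1 just below. These neighbours differed from JUNB by less than the difference between replicates.

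JUN, the founding subunit, had a single peak in replicate 2, 303 bp downstream of its start in the files (238 bp from the GENCODE start) in the 5′ UTR of its only exon. It scored 9.67, above 68.4% of the list, with 65 tags (50.2 to 82.8). None of the searched motifs was found in it. The divergent noncoding gene LINC01135 carried further peaks: those 31312 and 31332 bp upstream of the JUN GENCODE start scored 7.36 in replicate 1 and 16.5 in replicate 2 and overlapped, as did a second pair with scores of 6.41 and 9.22. The LINC01135 promoter peak 1042 bp upstream of that start, with a score of 7.88, and an intronic one 64783 bp upstream, with 4.46, were listed in replicate 2 and not overlapped in replicate 1.

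JUND, a Jun gene that is expressed constitutively in many cells, had no assigned peak, since the files give the peak in its promoter to MIR3188, a microRNA gene that starts nearby. The files' own annotation of that peak names the promoter of a JUND transcript. Its centre lay 258 bp upstream of the JUND GENCODE start in replicate 1 and 260 bp in replicate 2. It scored 12.1 in replicate 1 (64 tags, 49.3 to 81.7; above 90.8% of the list) and 21.4 in replicate 2 (144 tags, 121 to 170; above 95.2%). The peaks overlapped over 211 bases, held the same CRE and were 78.7% and 81.7% G and C. A further pair of peaks given to MIR3188, 10397 and 10400 bp upstream of JUND, scored 7.17 and 11.3 and held the forkhead heptamer in both replicates.

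FOS, the immediate early partner of Jun proteins, had the most peaks by the files' assignment, 4 in replicate 1 and 5 in replicate 2, and 4 pairs overlapped. The strongest was not the promoter peak. The peak 1551 bp upstream of the start, in a CpG island, scored 20.4 in replicate 1 (108 tags, 88.6 to 130) and 47.6 in replicate 2 (320 tags, 286 to 357). The promoter peak, centred 140 and 97 bp upstream, scored 16.2 (86 tags, 68.8 to 106) and 22.9 (154 tags, 131 to 180). The tag intervals of these peaks overlapped in replicate 1 and did not overlap in replicate 2. The promoter peaks held none of the searched motifs, the CArG box included. This covers only the bases of these peaks, which began at 75278533 in replicate 1 and 75278553 in replicate 2. It says nothing of the sequence before them.

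The remaining FOS peaks lay farther upstream. The one 19472 bp from the start, also in a CpG island, scored 13.0 in replicate 1 and 29.0 in replicate 2, above 92.5% and 97.8% of the lists. The one 11313 bp away scored 6.98 and 7.58, above 62.9% and 52.1%. A peak 48154 bp away, in a MIRb repeat, was listed in replicate 2 with a score of 6.99 and had no overlapping peak in replicate 1. Downstream of FOS, the promoter of the noncoding gene LINC01220 held a peak that scored 14.5 and 30.2 and carried the heptamer in both replicates.

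FOSB, an immediate early Fos protein, had 1 overlapping pair of peaks about its distal upstream region. The peak 11942 bp upstream scored 9.05 in replicate 1 (48 tags, 35.4 to 63.6), and the one 12012 bp upstream scored 13.1 in replicate 2 (88 tags, 70.6 to 108). The centres were 70 bp apart. The AP-1 site in replicate 1 started 216 bp from the one in replicate 2, and the 164 bases common to both peaks held no whole AP-1 site. The edge of the replicate 2 peak cut through the replicate 1 site, so which site each peak held depended on where the peaks ended. Its promoter peak, 195 bp upstream, was listed in replicate 2 with a score of 6.39 and held a CArG box, and a peak 10480 bp downstream scored 6.54. Both lay in the lower part of that list, with 39.4% and 41.1% of peaks scoring lower.

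FOSL1, which encodes FRA1, had its peak across the start, with centres 11 and 35 bp downstream. It scored 7.36 in replicate 1 (39 tags, 27.7 to 53.3) and 15.5 in replicate 2 (104 tags). It stood above 67.1% of the first list and 88.6% of the second, the widest gap between replicates among the best peaks of the 4 genes. By best peak, JUNB (99.4% and 99.6%) and FOS (97.8% and 99.4%) had ranges less than 0.1 percentage points apart, FOSB (79.9% and 83.2%) lay below FOS, and FOSL1 spanned the values of FOSB, so FOSB and FOSL1 were not separable by these replicates.

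FOSL2, which encodes FRA2, had a promoter peak in replicate 2 that scored 16.2 (109 tags, 89.5 to 131), and a peak 33349 bp upstream that scored 9.96. The promoter peak lay 170 bp upstream of the start used in the files and 294 bp downstream of the GENCODE start. Neither peak was overlapped in replicate 1. Among the 500 replicate 2 peaks nearest in rank to the promoter peak, 81.0% were overlapped. Inside the gene, a peak in intron 2 that the files give to FLJ31356 was found in both replicates, 14540 and 14530 bp downstream of the GENCODE start, with scores of 6.98 and 13.1. In replicate 1, introns 1 and 3 held further peaks with scores of 9.43 and 5.85, the latter with an AP-1 site at its centre, and neither was overlapped in replicate 2.

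The BATF genes had peaks in replicate 2 and none in replicate 1. BATF had a promoter peak 244 bp upstream with a score of 10.7 and a peak in intron 2, in a LINE of the L2a type, with a score of 13.4. BATF2 had a promoter peak with the same score of 10.7, annotated to a transcript that starts within the gene. BATF3 had an intergenic peak 32346 bp downstream of its start with a score of 9.22. All 4 peaks corresponded to between 62 and 90 tags, and of the 500 peaks nearest in rank to each, between 46.0% and 68.8% were overlapped in replicate 1.

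**Figure D2:**
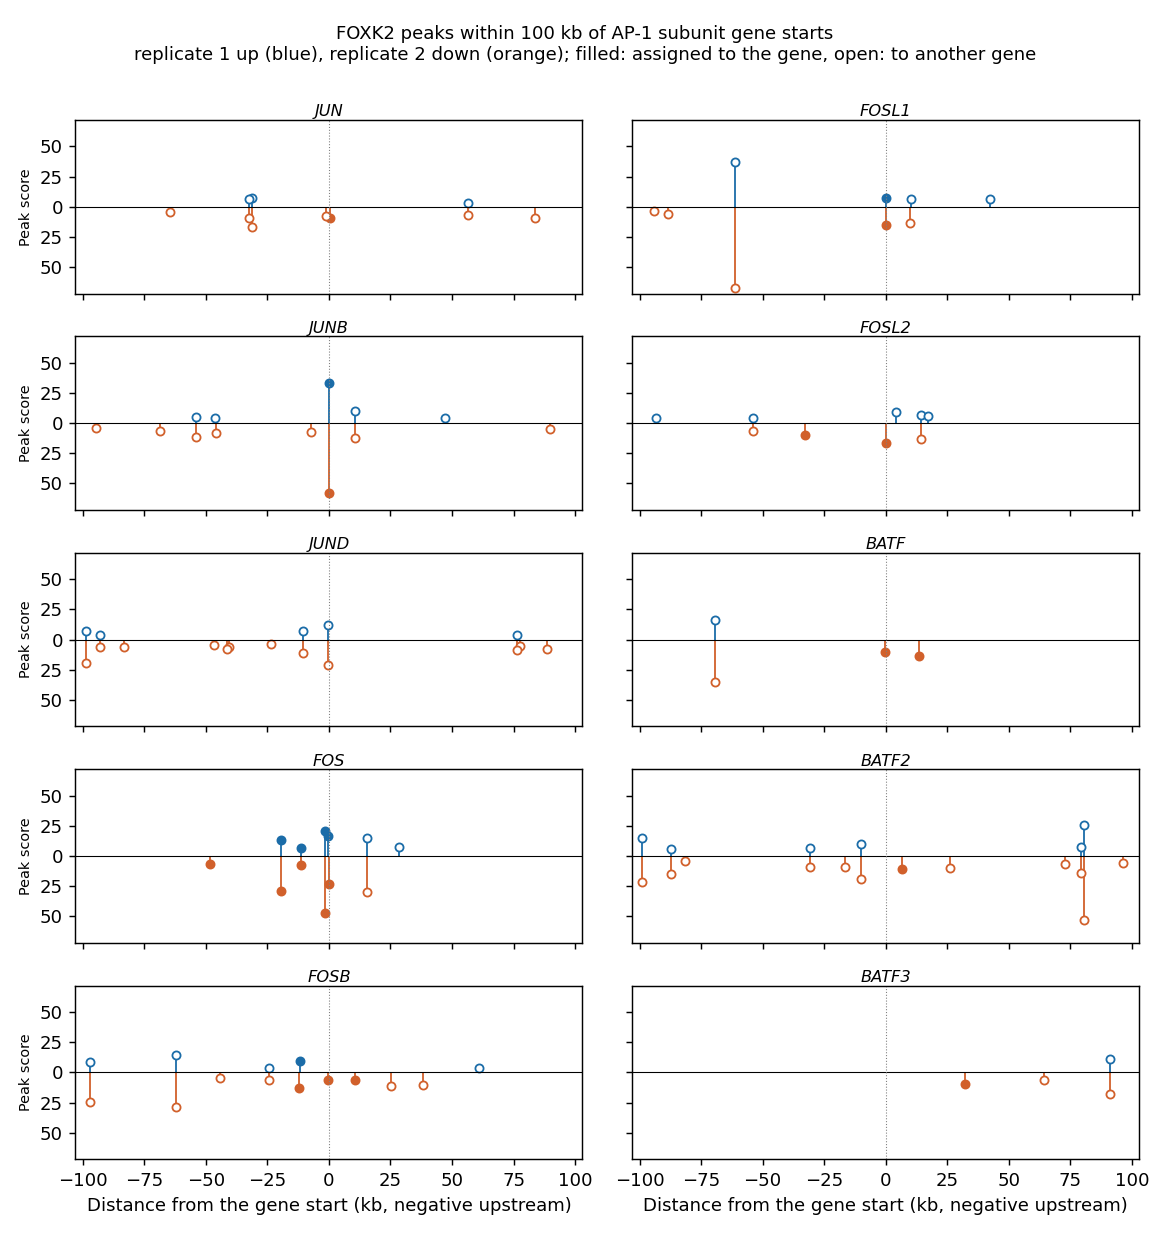
FOXK2 peaks within 100 kb of each AP-1 subunit gene's GENCODE start, by distance in kb along the gene's strand (horizontal axis, negative upstream) and peak score (vertical axis, replicate 1 upwards in blue, replicate 2 downwards in orange); filled points were assigned to the gene and open points to another gene. The JUND promoter pair, with scores of 12.1 and 21.4, and the FOSL2 intron pair, with 6.98 and 13.1, appear as open points.

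When each peak was instead given to the protein-coding gene with the nearest GENCODE start, member genes had 24 peaks in replicate 1 and 32 in replicate 2, and 7 of 10 had a peak in both, beside 34.0% of 20020 coding genes. JUN, JUND and FOSL2 were the genes gained, and the BATF genes again had peaks in replicate 2 and none in replicate 1. FOS no longer had the most peaks: it had 6 in each replicate, FOSL2 had 7 and 6, and JUN had 5 and 8. With promoters taken as 1000 bp before to 100 bp after a GENCODE start, 4 members (JUNB, JUND, FOS and FOSL1) had a peak centre there in both replicates, beside 14.8% of coding genes. The stretches of the genome nearest to the 10 genes covered 987 kb and held 2.43 peaks per 100 kb in replicate 1 and 3.24 in replicate 2. Chromosomes 1 to 22 and X held 0.411 and 0.900, counted over every base. The rate around other coding genes was not computed, so these values do not set the members apart from other genes. By gene, JUND had 8.23 peaks per 100 kb in both replicates, from 2 peaks in 24.3 kb. FOSB had 5.54 and 8.31, from 2 and 3 peaks, and JUNB 3.99 and 7.98, from 1 and 2. FOSL1 had 7.04 in both, from 1 peak each, and FOS 4.78 in both, from 6 each. BATF3, the sparsest in replicate 2, had 0 and 1.20, and BATF and BATF2 also had 0 in replicate 1.

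The ratio of scores between replicates was also compared for the overlapping member pairs. No interval was computed for this ratio, so counting error is not separated from differences among pairs. The FOS pair 11313 bp upstream, for example, had 37 tags (26.1 to 51.0) and 51 tags (38.0 to 67.1). Over all 9343 overlapping pairs the replicate 2 score was a median of 1.73 times the replicate 1 score (quartiles 1.45 and 2.02). JUNB lay at 1.75, near the middle. The FOS peaks spread over most of the range: 2.33 for the CpG island peak 1551 bp upstream and 2.23 for the one 19472 bp upstream, against 1.41 for the promoter and 1.09 for the peak 11313 bp upstream. Of all pairs, 90.6% had a lower ratio than the first of these and 4.00% a lower ratio than the last. FOSL1 had a ratio of 2.11 and FOSB 1.45.

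**Figure D3:**
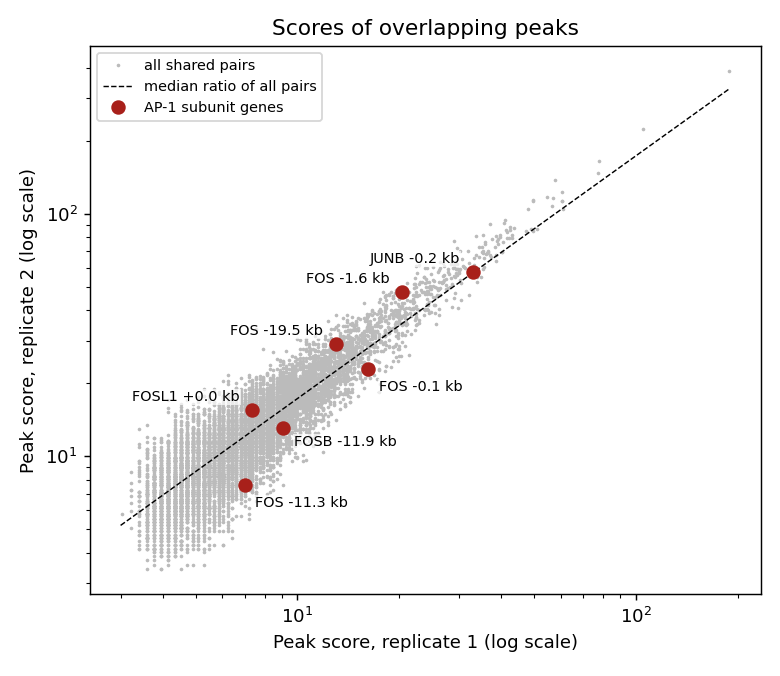
Score in replicate 1 (horizontal, log scale) and replicate 2 (vertical, log scale) of the 9343 overlapping pairs of peaks (grey), with the 7 pairs of AP-1 subunit genes in red, labelled by gene and distance from the start, and the median ratio of 1.73 as a dashed line. JUNB lay on the line, and the FOS pairs lay on both sides of it.

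The searched motifs were counted in the member peaks and in all peaks of each list. The heptamer lay within 100 bp of the centre in 2 of 7 member peaks of replicate 1 (28.6%, Wilson 95% interval 8.22 to 64.1%) and 2 of 17 of replicate 2 (11.8%, 3.29 to 34.3%), beside 30.5% and 28.2% of all peaks. These were the JUNB promoter and the FOS peak 1551 bp upstream in both replicates, so among the 7 member peaks that overlapped between replicates the share in replicate 2 was 28.6%. None of the 14 and 34 windows 2000 bp to each side of the member peaks held it, beside 2.88% and 2.89% for the lists. The AP-1 site lay in 1 of 7 (14.3%, 2.57 to 51.3%) and 2 of 17 (11.8%, 3.29 to 34.3%), beside 16.4% and 16.6% of all peaks. The degenerate core was found in 4 of 7 (57.1%) and 5 of 17 (29.4%) member peaks, beside 57.9% and 56.9% of all peaks. No member peak held the CRE in this window, with Wilson upper limits of 35.4% and 18.4%, and 0.810% and 0.803% of all peaks did. A CArG box was found in 0 of 7 and in 1 of 17, the FOSB promoter, beside 0.890% and 0.916% of all peaks. Farther than 100 bp from the centre, AP-1 sites were found in the replicate 2 peaks of the FOSL1 start and the FOSL2 promoter.

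In RefSeq promoter windows of hg38 (250 bases before to 50 after the start, 8 of 10 members matched), the heptamer was found for JUNB alone among the members, and 3.42% of all 35116 windows held it. The AP-1 site was found for FOSL2 alone (4.95% of all windows) and the CRE for JUND alone (1.85%). The degenerate core was found for JUNB and FOSB (24.3%), and the CArG box for none of the 8 (1.29%). A match states only that these letters were present, and its absence only that they were not in this window.

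**Figure D4:**
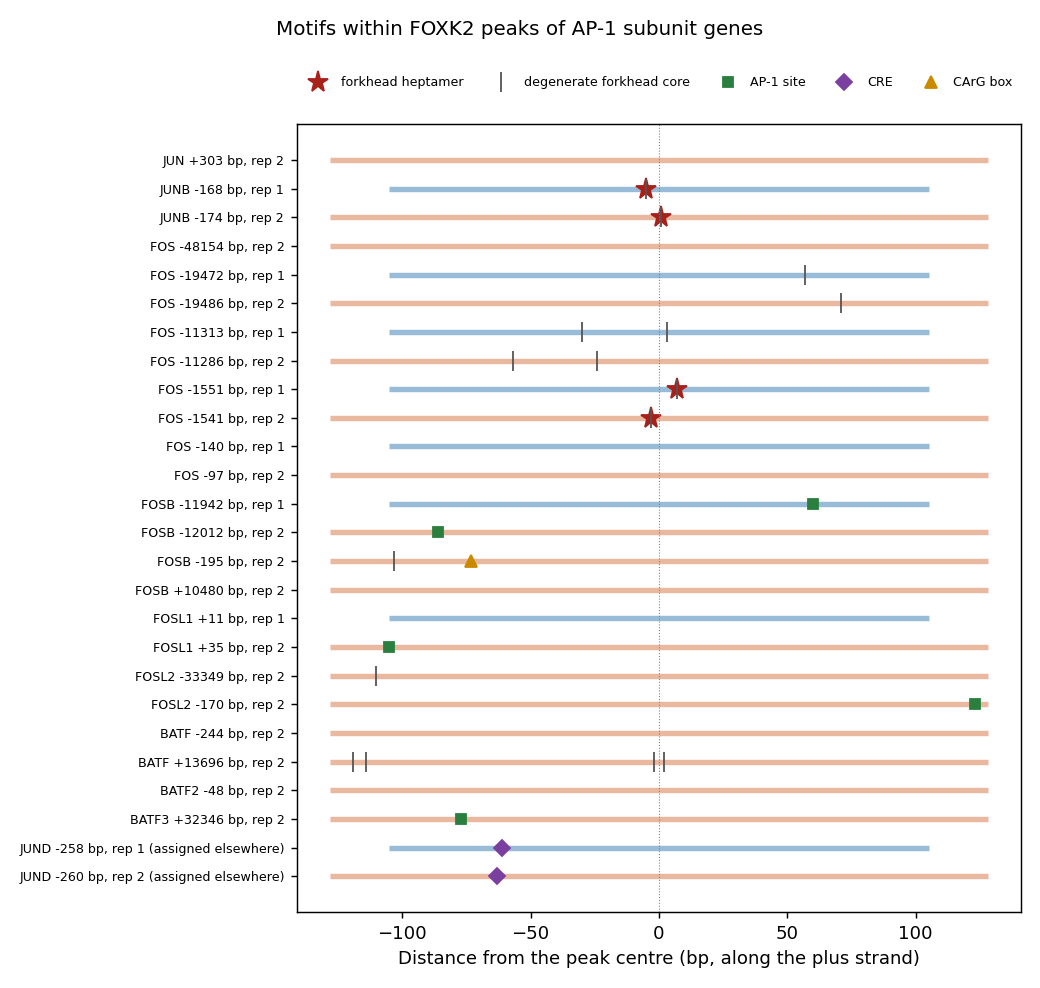
Motifs (symbols) along each AP-1 subunit gene peak, by distance in bp from the peak centre along the plus strand; bars span the deposited peak, blue for replicate 1 and orange for replicate 2. The forkhead heptamer sat within 7 bp of the centre in the JUNB and FOS pairs, with the degenerate core marked on the same copy, and the FOSB pair held AP-1 sites on opposite sides of the centre.

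Other genes of the AP-1 network were then described from 3 lists. Of 18 bZIP partners, 13 (72.2%) had an assigned peak in both replicates and 6 had promoter-class peaks in both. Of 14 upstream kinases and partners of serum response factor, itself included, 9 (64.3%) and 3 did, and of 16 classical AP-1 targets, 5 (31.3%) and 2. These values stand beside the 28.6% and 9.30% of coding genes given above, with no test. In all of them a gene counted where each list named it, whether or not the peaks overlapped. Where the peaks had to overlap, 24 in place of 27 genes of the 3 gene lists had a peak in both replicates. CREB1, MAPK9 and MRTFB had peaks in both lists, none of them overlapping. No share of coding genes was computed for overlapping peaks. In the higher-scoring part of each peak list, 16 in place of 27 genes of the 3 gene lists had a peak in both replicates. No share of coding genes was computed at that limit. NRL, a photoreceptor bZIP factor, ranked first among those with a peak in both, with a promoter peak that scored 22.4 and 47.4 and held the heptamer in both replicates. DUSP1, a phosphatase that inactivates MAP kinases, had a peak 1320 and 1313 bp upstream that scored 20.0 and 40.2 and lacked the heptamer. JDP2, a repressive partner of Jun proteins, had an intronic peak with the heptamer that scored 16.4 and 35.2, and that peak lay 69241 and 69219 bp upstream of BATF.

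CXCL8, a chemokine gene activated by AP-1, had a peak in its 5′ UTR that scored 11.9 and 23.5. ATF2, a stress-responsive partner of Jun proteins, had a promoter peak that scored 11.1 and 25.6. Both peaks held the heptamer in both replicates. ATF3, a stress-induced bZIP factor, had a promoter peak without it that scored 10.8 and 17.8. No peak in either list was assigned to the partners ATF4 and MAFG, the kinases MAPK3 and MAP2K4, or the targets MMP3, MMP9, IL6, CD44, TIMP1 and SPP1, which says only that none was listed for them.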

How the data were processed

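FOXK2 ChIP-seq peak lists of 2 biological replicates of OVCAR5 cells were analysed. Per the submitters' processing notes and the study's methods, reads were mapped to hg38 with Bowtie2 2.2.6 and peaks called and annotated with HOMER 4.10, each replicate on its own. The study tested the enrichment of each peak from read counts, compared target with input and applied an FDR threshold where it set peaks against RNA-seq; whether the deposited lists had passed that threshold, and whether HOMER was given the input, is not given in the sources used here. The authors deposited a peak score, a focus ratio (a fraction), positions and distances to the nearest start. The scale of the score is not stated: tags were recovered from its fixed steps, and with HOMER's default scaling to 10000000 tags the libraries would hold 53011588 and 67240904 tags. The weakest peaks had 16 and 21 tags, so weaker binding was not listed. Starts and ends were read as 1-based and inclusive, giving peaks of 211 and 257 bases.

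Peaks were matched to members by gene name, overlaps needed 1 bp, and motifs were searched on both strands of hg38 with Python 3.11.15, pysam 0.24.0, pandas 2.3.3 and scipy 1.17.1. Coordinates of genes came from GENCODE 44 and promoter windows from RefSeq. Motif search and overlap were tested on simulated data. Intervals are Wilson or exact Poisson and cover counting error only. The members and lists were chosen with earlier results of these data known. All members were named, with the 6 listed genes of the best mean percentile, the listed genes without a peak and the 2 genes to each side of JUNB in order. Alternatives changed the gene assignment, distance limit, overlap, motif window, list length and replicates. Input libraries, reads and RNA-seq of the study were not analysed here.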

Additional observations from a re-analysis of the deposited data

How the results depend on the processing

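Of 63 alternatives to the main counts, shares and medians, 52 left a count within 1.5 times, a share within its 95% interval or a median within the SD between the replicates, 11 moved it and none reversed it. Within 10000 bp of a start, member peaks numbered 4 in replicate 1 and 9 in replicate 2, and the replicate 2 median of peaks scoring lower was 88.6% in place of 74.3%. With the nearest GENCODE coding gene they numbered 24 and 32, and 7 members had a peak in both replicates. Using 1 replicate alone, members with a peak ranged from 4 to 9 and with a promoter peak from 3 to 7. In the higher-scoring part of each list, 16 in place of 27 listed partner, upstream and target genes had a peak in both. With a window of 50 bp the AP-1 site was in 0% of member peaks in both replicates, and with 500 bp in 28.6% and 23.5% in place of 14.3% and 11.8%. The shares of all peaks with the site were not computed at these 2 windows, so the members cannot be compared with the lists there. Over the peaks that overlap between replicates the replicate 2 heptamer share was 28.6% in place of 11.8%, and with the degenerate core the shares were 57.1% and 29.4% in place of 28.6% and 11.8%. Each of these alternatives by its construction changed which peaks were given to the genes, how many replicates were required, how long the lists were, which motif was searched or how wide its window was. Leaving out 1 member moved the median of peaks scoring lower to between 79.9% and 94.3% in replicate 1 and between 74.3% and 79.1% in replicate 2. Of 24 alternatives for single genes 22 stayed and 2 moved: within 10000 bp the best replicate 2 peak stood above 39.4% for FOSB and 74.3% for BATF, and FOSB in replicate 1 and BATF3 had no peak left. No paired analysis was possible because the results come from no test between groups. Both lists come from 1 cell line and 1 condition, so they limit the description to these cultures.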

Other observations

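Within 100 kb of AP-1 subunit gene starts, 26 overlapping pairs of peaks were given to 1 and the same other gene in both replicates, and 7 of these pairs stood above 90% of both lists. The share of all 9343 overlapping pairs above that limit was not computed. The count therefore only selects the pairs named here and is no comparison with the lists. The JUND promoter, LINC01220 and JDP2 pairs are described in the report. The SART1 promoter, 61100 bp upstream of FOSL1, held a peak that scored 37.2 in replicate 1 (rank 45) and 67.4 in replicate 2 (rank 62), and SART1 encodes a splicing protein. An intron of ATG2A, an autophagy gene, held a peak 80604 bp downstream of the BATF2 start that scored 25.3 and 52.8. The VPS51 promoter, 99179 bp upstream of BATF2, held a peak that scored 15.3 and 21.4. The CD3EAP promoter peak 62095 bp upstream of FOSB scored 14.1 and 28.9. The 90% limit was chosen after the values were seen.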
